A study of Arabidopsis thaliana and Nicotiana benthamiana and Solanum lycopersicum with 20 samples.

Results

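Tomato GLK2 binding regions with several summits are stretches of the genome that the authors' peak caller drew as 1 enriched region but split into 3 or more local maxima. They were chosen by the number of summits in the peak list of tomato leaf GLK2 replicate 1, where the name of each line gives its region and a trailing letter gives the summit within it. On the 12 chromosomes of the SL4.0 assembly, 4075 of 37351 regions (10.9%) had 3 or more summits, and they held 14979 of 55746 summits (26.9%). A further 7491 regions had 2 summits and 25785 had 1. All 4075 regions were used, with no filter on low values. The whole series has 365481 regions and 480034 summits in 20 lists.

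GOLDEN2-LIKE (GLK) proteins are transcription factors (TFs) of the GARP family that switch on nuclear genes for chlorophyll synthesis and for the light-harvesting and photosystem proteins of the chloroplast. In tomato, GLK1 acts mainly in leaves, and GLK2 gives the green shoulder of the unripe fruit. Clusters of binding sites for 1 factor are common in plant and animal regulatory DNA, and in a ChIP-seq track such a cluster can appear as neighbouring summits under 1 broad peak.

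ChIP-seq pulls down DNA cross-linked to a tagged protein and sequences it. The series covers leaves of Arabidopsis, tobacco, tomato and rice and leaf protoplasts of maize, each TF having 2 biological replicates per species. Arabidopsis GLKs carried a GFP tag in the glk1/glk2 double mutant, and tobacco GLKs an HA tag by transient expression in Nicotiana benthamiana. Rice GLKs carried an HA tag in wild-type Nipponbare, and maize GLKs a biotin tag in protoplasts of B73. Background, tag and way of expression thus differ with the species. In tomato, GLK2 (Solyc10g008160) fused to GFP was overexpressed in transgenic Micro-Tom, a cultivar whose own GLK2 locus carries a loss-of-function mutation. GLK1 (Solyc07g053630) fused to GFP was overexpressed in cultivar AC++. GLK2 and GLK1 therefore also differ in cultivar, and the part of the TF and that of the cultivar cannot be told apart. Lines were chosen for high protein level, so the lists describe binding of an abundant tagged protein. The labels name an anti-GFP antibody for GLK2 replicate 1 and GLK1 replicate 2, anti-GFP together with anti-HA for GLK2 replicate 2, and anti-HA for GLK1 replicate 1, and the series description gives transient expression where the paper's methods give stable tomato lines.

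Each line of a list holds 1 summit with its fold change over a control, which the sources used here do not identify. The fold change is the measure of strength within a list in all that follows. Lists may differ in scale, so fold changes of different lists set side by side do not measure a difference in binding. GLK2 replicates 1 and 2 hold 55746 and 53575 summits on the chromosomes, against 54962 and 38481 in GLK1 replicates 1 and 2. Sequencing depth is unknown for a single list, and the study states only a range of reads for all tomato samples. A summit missing from a list is one not called there. The share of regions with 3 or more summits was 10.9% and 10.4% in the GLK2 lists, and 7.38% and 5.87% in the GLK1 lists. Over all 20 lists it ranged between 0.286% in rice GLK2 replicate 2 and 11.97% in Arabidopsis GLK2 replicate 2.

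The number of summits, their spacing and their fold changes in GLK2 replicate 1 come from the list that chose the regions, so they are given as a description. Most regions had few summits. There were 2555 regions (62.7%) with 3 summits, 841 (20.6%) with 4, 388 (9.52%) with 5 and 158 (3.88%) with 6. Another 133 had more, up to 11 summits in 5 regions, 15 in 1 region and 27 in 1 region. Neighbouring summits lay a median of 220 bp apart, with quartiles of 157 and 329 bp. The most frequent spacing was between 140 and 159 bp, which held 9.10% of the 10904 distances. Only 5% of the distances were under 108 bp, and 21.4% were under 150 bp, so that the 150 bp windows of the pair overlapped. The distance between the first and the last summit of a region had a median of 591 bp, quartiles of 406 and 877 bp, and a largest value of 12416 bp. Regions with 2 summits, just outside the threshold, had a median spacing of 197 bp, close to the 210 bp of regions with 3.

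**Figure D1:**
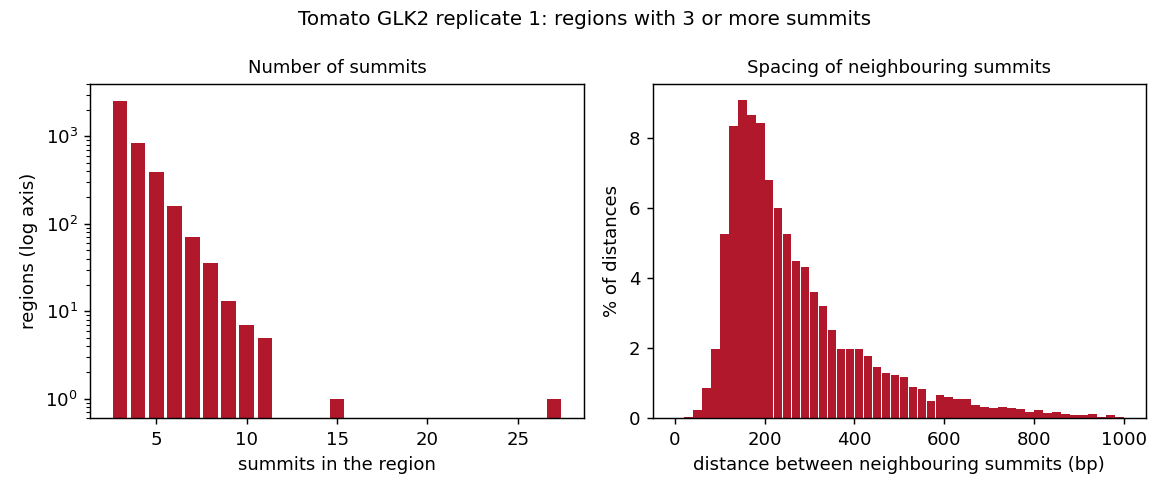
Number of summits (left, regions on a log axis) and distance between neighbouring summits (right, 20 bp bins up to 1000 bp, % of 10904 distances) in the 4075 regions of tomato GLK2 replicate 1 with 3 or more summits. The number of regions drops from 2555 with 3 summits to single regions with 15 and 27, and the distances peak at 140 to 159 bp.

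Regions with more summits had a stronger highest summit. Its median fold change was 11.03 in regions with 3 or more summits (quartiles 7.14 and 20.8, highest 1175), 7.36 in regions with 2 summits and 4.21 in regions with 1 summit (quartiles 3.36 and 6.21, highest 443). Within the regions studied the median was 9.58 with 3 summits, 12.04 with 4, 15.4 with 5 and 23.2 with 6 or more. The highest of more summits tends to be larger by that choice alone, and this part of the difference was not tested. Of the 100 strongest regions of the list, 71 had 3 or more summits and 13 had 1. Of the 1000 strongest, 375 had 3 or more summits and 351 had 1, although single-summit regions make up 69.0% of the list.

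The other summits were much weaker than the highest one. Their median fold change was 5.32, and the median ratio of another summit to the highest of its region was 0.502. It was 0.588 in regions with 3 summits and 0.311 in those with 6 or more, where the highest summit was stronger and the others were alike. The median fold changes of the others were 4.97, 5.38, 5.76 and 5.90 for 3, 4, 5 and 6 or more summits. The second highest summit reached a median of 0.703 of the highest. In 744 regions (18.3%) it reached 0.9 or more, so that the pair was nearly equal, and in 127 regions it stayed under 0.1. In regions with 3 summits the highest was the middle one in 42.9%, the first along the chromosome in 25.5% and the last in 31.6%. The 1000 strongest summits of the list, all at a fold change of 55.7 or more, included 416 in these regions. These 416 lay in 354 regions, of which 51 held at least 2 of them and 7 at least 3.

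The ratio to the highest summit was lower at larger distances. Other summits under 150 bp away had a median ratio of 0.796 to the highest (quartiles 0.673 and 0.897, n = 1210). The median ratio was 0.463 at 300 to 449 bp (n = 2107) and 0.132 at 1200 bp or more (n = 474). The fold change itself hardly moved over the same bins, with medians between 4.96 and 6.21. Far summits belong to wider regions, and these have stronger highest summits, so the bins do not hold the same regions.

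**Figure D2:**
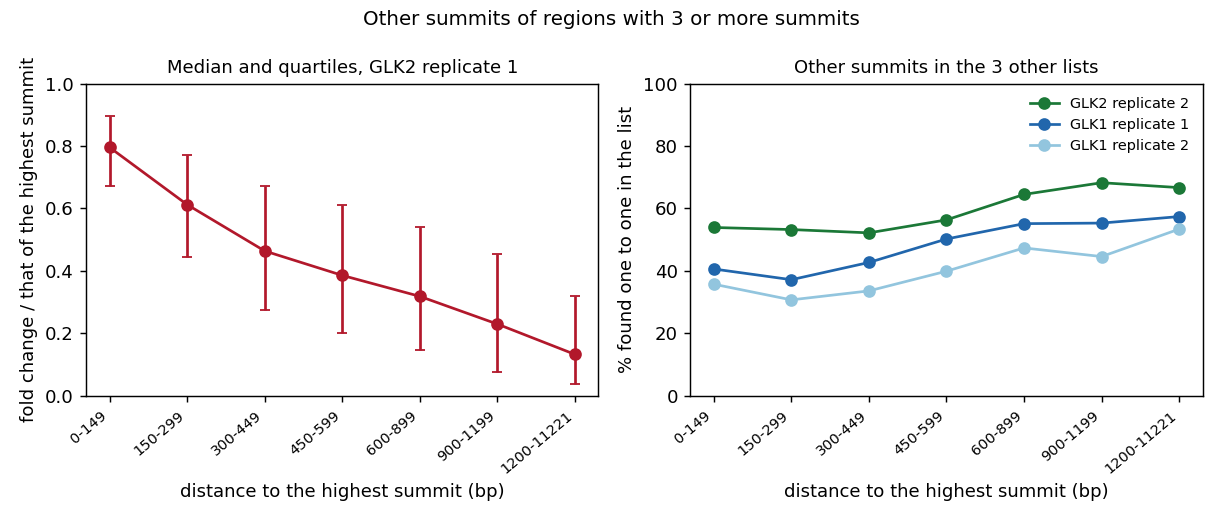
Other summits of the regions with 3 or more summits by distance to the highest summit of their region: ratio of fold changes in GLK2 replicate 1 (left, median with quartiles as bars) and % found one to one in each of the 3 other tomato lists (right). The median ratio is 0.796 in the nearest bin and 0.132 in the farthest. The share found one to one in GLK2 replicate 2 is 53.9% in the nearest and 66.7% in the farthest. Close neighbours compete for a partner in this count. By overlap of 150 bp windows the share there is 72.1% under 300 bp, 62.0% at 300 to 599 bp and 74.3% at 600 bp or more.

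Whether a highest summit returns in the other lists is a measure that the choice of regions did not use. A summit counts as found when another list has a summit under 150 bp away, so that their 150 bp windows overlap. In GLK2 replicate 2, 3879 of the 4075 highest summits were found, 95.2% (95% Wilson interval 94.5 to 95.8%), against 63.1% (62.5 to 63.7%) of 25785 single summits, with 72.2% over all 37351 regions. In GLK1 replicate 1, 87.5% (86.5 to 88.5%) were found against 57.8% of single summits, with 65.8% over all regions. In GLK1 replicate 2, 80.2% (79.0 to 81.4%) were found against 42.4% of single summits, with 52% over all regions. Intervals cover counting error only. With the searched lists cut to the 38481 strongest summits, the length of the shortest, the shares were 91.98%, 83.4% and 80.2%. All 3 lists held the highest summit of 75.2% of the regions with 3 or more summits, against 32.8% of single summits and 43.5% of all regions, and none held it in 74 regions (1.82%), against 22.8% of single summits.

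The differences were thus 32.1, 29.8 and 37.9 percentage points in GLK2 replicate 2, GLK1 replicate 1 and GLK1 replicate 2. All 3 were positive, and a two-sided exact sign-flip test over the 3 lists gave p = 0.25, the smallest p that 3 lists allow. The share found also grew within the regions, reaching 98.6% in GLK2 replicate 2, 92.8% in GLK1 replicate 1 and 89.3% in GLK1 replicate 2 with 6 or more summits, where regions with 3 summits had 93.9%, 86.2% and 77.0%. Regions with 2 summits lay between, at 90.8%, 81.5% and 69.9%. Highest summits that were found lay a median of 17, 23 and 27 bp from their partner in the 3 lists, against 30, 33 and 35 bp for single summits. These medians do not take strength into account. Within 25 bp, highest summits were found less often than single summits of like fold change, with differences of −4.27, −4.55 and −1.24 points.

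Strength moved with the number of summits, and it moved with recurrence too. Regions were therefore compared within 20 strata of equal size by the fold change of the highest summit. A highest summit is picked as the largest of 3 or more values and a single summit is not picked, and the strata do not correct for this. Of single summits weighted to the strength of the regions with 3 or more, 95.3% were found in GLK2 replicate 2, 86.2% in GLK1 replicate 1 and 75.8% in GLK1 replicate 2. The remaining differences, 3 or more summits minus 1 summit, were −0.11 points in GLK2 replicate 2 (95% interval −0.77 to 0.54), 1.34 points in GLK1 replicate 1 (0.23 to 2.46) and 4.42 points in GLK1 replicate 2 (3.07 to 5.77). They were positive in 2 of 3 lists, with an exact two-sided sign-flip p = 0.5. The value of GLK2 replicate 2 turned positive under several other settings, the highest being 1.83 points with regions of 2 or more summits. The sign of the differences depended on the distance allowed: within 75 bp they were −4.79, −3.87 and −0.92 points. They also rest on overlap of windows, by which a highest summit can share its partner with a neighbouring summit of its region. With each partner used once, 88.0%, 79.2% and 72.0% of highest summits were found in the 3 lists, without strata.

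The stratified difference was not even over strength. In the lower 10 strata, with fold changes up to 5.11, the 278 regions with 3 or more summits exceeded single-summit regions of like strength by 8.37, 7.59 and 11.1 points in GLK2 replicate 2, GLK1 replicate 1 and GLK1 replicate 2. Each interval lay above 0, the lowest bound being 1.83 points. The intervals in this paragraph cover counting error over regions of 1 source list and do not measure the spread between libraries. In the upper 10 strata, with 3797 of the 4075 regions, the differences were −0.74, 0.89 and 3.93 points. There the interval of GLK2 replicate 2 lay below 0 (−1.32 to −0.15), that of GLK1 replicate 1 included 0 and that of GLK1 replicate 2 lay above it (2.55 to 5.31). In the strongest 5 strata, from a fold change of 8.84, GLK2 replicate 2 held 99.3% of regions with 3 or more summits and 99.8% of single summits of like strength, a difference of −0.53 points (−0.86 to −0.19).

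**Figure D3:**
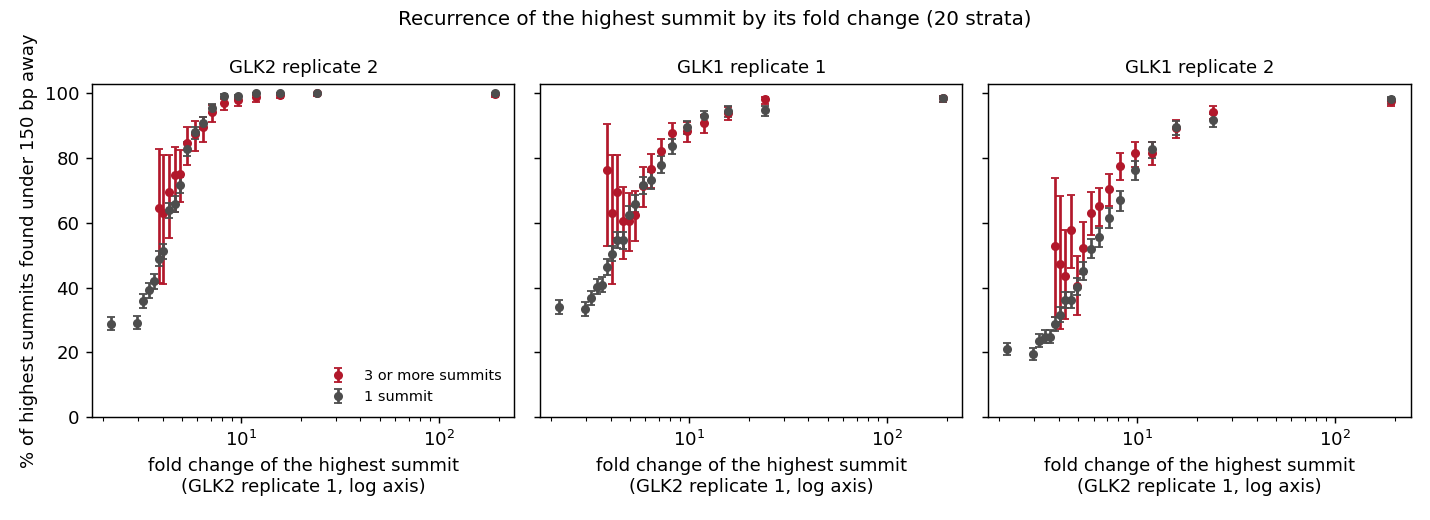
Share of highest summits found under 150 bp away in each of the 3 other tomato lists (y axis, %) by their fold change in GLK2 replicate 1 (x axis, log), for regions with 3 or more summits and with 1 summit. Points are strata with at least 10 regions of that kind and bars are 95% Wilson intervals; both kinds of region are found more often at higher fold changes, the gaps over the lower 10 strata are 8.37, 7.59 and 11.1 points, and those over the upper 10 are −0.74, 0.89 and 3.93 points.

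The same comparison was made in the other species, with replicate 1 of each TF as the source and replicate 2 searched. The raw difference between regions with 3 or more summits and single-summit regions was positive in 10 of 10 pairs of replicates, with a mean of 32.3 ± 11.1 points (SD, n = 10). GLK1 and GLK2 of a species moved together, so the test was made on the mean of both TFs in each species, a choice made after seeing the data. The raw difference was positive in 5 of 5 species, and the exact two-sided sign-flip test gave p = 0.0625, the smallest p that 5 species allow. Over pairs taken singly it was 0.00195, which counts both TFs of a species as independent. Within strata of strength the mean was −1.68 ± 4.84 points (SD, n = 5 species), positive in 2 of 5, with an exact p = 0.4375, or 0.275 over the 10 pairs. Tomato GLK2, at −0.11 points, lay inside the range of the pairs, between −8.72 in maize GLK2 and 5.52 in rice GLK1. With regions of 2 or more summits the mean over pairs was 0.28 points. Within 75 bp it was −7.52 points (exact p = 0.125 over 5 species, 0.00586 over 10 pairs). With replicate 2 as the source it was −3.55 points over 9 pairs (exact p = 0.0156), and −3.47 points over 5 species (exact p = 0.0625).

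The other summits of the regions with 3 or more were found less often than the highest. By this overlap of windows, 69.3% (68.4 to 70.1%) of 10904 were found in GLK2 replicate 2, 58.1% (57.2 to 59.0%) in GLK1 replicate 1 and 50.2% (49.3 to 51.2%) in GLK1 replicate 2. These intervals treat the summits of a region as independent and are too narrow. The shares over all 55746 summits of the list were 70.7%, 62.7% and 50.6%, so the other summits were near that background. Because neighbouring summits are close, 1 summit of another list can overlap several. When each summit of a list could be used once, by its closest partner, 56.9% of other summits had a partner in GLK2 replicate 2, 45.4% in GLK1 replicate 1 and 37.6% in GLK1 replicate 2. The highest summits had 88.0%, 79.2% and 72.0% under the same counting.

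Set against single summits of like fold change, the other summits were found less often in 2 of the lists by overlap of windows. The differences, other summits minus single summits, were −6.12 points in GLK2 replicate 2 (−7.08 to −5.16), −7.92 points in GLK1 replicate 1 (−9.01 to −6.84) and 0.69 points in GLK1 replicate 2, the last with an interval across 0 (−0.43 to 1.81). They did not follow distance from the highest summit in 1 direction: they were −5.60, −10.2 and −0.10 points under 300 bp, −10.2, −9.57 and −2.58 points at 300 to 599 bp, and −1.73, −2.42 and 5.99 points at 600 bp or more. One to one, they were −18.5, −20.7 and −11.9 points in all, −24.2, −29.9 and −19.7 points under 300 bp and −10.3, −11.1 and −2.69 points at 600 bp or more. One-to-one counting lowers these values by itself, because close neighbours compete for a partner and single summits do not: single summits of like strength had 75.4% in GLK2 replicate 2 under both ways of counting. The intervals in this paragraph treat summits as independent, although several come from 1 region and can share a partner, so they are too narrow. Other summits are by definition not the largest of their region, and the match on fold change does not correct for this.

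Whole regions were seldom matched summit by summit. Every summit had its own partner in 742 regions (18.2%) in GLK2 replicate 2, in 369 (9.06%) in GLK1 replicate 1 and in 196 (4.81%) in GLK1 replicate 2. Regions with no partner at all numbered 12, 146 and 345. Counting any summit within the span of the region plus 75 bp on either side, the regions held a mean of 2.60, 2.10 and 1.81 summits in the 3 lists, against 3.68 in the source list. They had 3 or more summits again in 43.9% of cases in GLK2 replicate 2, 29.0% in GLK1 replicate 1 and 22.1% in GLK1 replicate 2, where the shares over all 37351 regions were 5.55%, 3.54% and 2.62%. Regions with 2 summits had 3.805%, 1.896% and 1.04%, and those with 1 summit had 0%. The span searched limits these shares. A region with 1 summit offers only 75 bp on either side of it, so its 0% was nearly fixed in advance. This also lowers the shares over all regions. Since regions were chosen for a high number in the source list, a lower number elsewhere is partly given by the choice.

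The number of summits in the source list ordered these shares. With 3 summits, 27.4% of regions had 3 or more again in GLK2 replicate 2, 14.5% in GLK1 replicate 1 and 9.43% in GLK1 replicate 2. With 6 or more summits the shares were 96.2%, 89.0% and 80.1%. The median span was 457 bp with 3 summits and 1636 bp with 6 or more, and a wider span can hold more summits. That part of the difference was not tested. A set of 571 regions (14.0%) had 3 or more summits in all 4 lists. Another 734 (18.0%) had 3 or more in both GLK2 lists and fewer in both GLK1 lists, and 1905 (46.7%) reached 3 in the source list alone. Shares over all regions are not given for these sets. The GLK1 lists had fewer regions with 3 or more summits throughout, 7.38% and 5.87% against 10.9% and 10.4% in the GLK2 lists. The sets are therefore not a measure of regions particular to GLK2.

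The summit that was highest in GLK2 replicate 1 was usually highest elsewhere. Among regions with at least 1 summit in the list, it was also the highest, under 150 bp away, in 83.4% (82.2 to 84.5%) of 4056 in GLK2 replicate 2, 75.04% (73.7 to 76.4%) of 3906 in GLK1 replicate 1 and 74.2% (72.8 to 75.6%) of 3697 in GLK1 replicate 2. If 1 of the summits of each region were picked evenly, the mean would be 29.0%, 28.9% and 28.7%. That even pick is not the chance level of this measure, since any highest summit under 150 bp away counts. Of the 4075 regions, 20.1%, 31.3% and 37.1% had only 1 summit in the list, which is the highest there by default. A chance level was not computed. With the number of summits the shares with the same highest summit stayed between 81.9% and 85.1% in GLK2 replicate 2. They were lower with 5 summits than with 3 in the GLK1 lists, at 68.1% against 77.8% in GLK1 replicate 1 and 69.1% against 77.0% in GLK1 replicate 2. Where the first and second summit both had their own partner, their order was kept in 80.2% of 2253 regions in GLK2 replicate 2, 74.6% of 1628 in GLK1 replicate 1 and 75.3% of 1209 in GLK1 replicate 2. The order was kept in 98.9%, 91.2% and 91.5% where the second was under 0.5 of the first in the source list. Where the second reached 0.9 or more, the shares were 53.6%, 47.3% and 53.2%, and each interval included an even split.

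**Figure D4:**
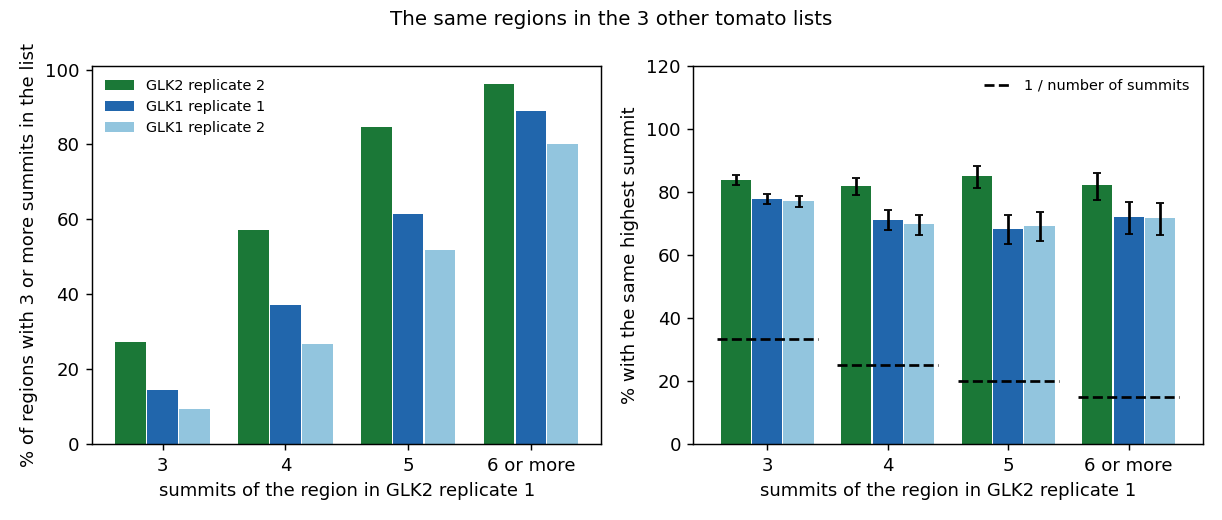
The regions in the 3 other tomato lists, by their number of summits in GLK2 replicate 1: % with 3 or more summits in the list (left) and % whose highest summit lies under 150 bp from the highest of the source list (right, bars are 95% Wilson intervals, dashed lines are 1 divided by the number of summits). The dashed lines are not the chance level of the measure, and the span searched widens with the number of summits. Regions keeping 3 or more summits make up 27.4% in GLK2 replicate 2 with 3 summits and 96.2% with 6 or more, while the same summit stays highest in 81.9% to 85.1% there and in 68.1% to 77.8% in the GLK1 lists.

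Fold changes ranked the highest summits alike in both GLK2 lists. Over the 2597 highest summits with their own partner in all 4 lists, Spearman's rho across summits was 0.954 between the GLK2 replicates, 0.889 between the GLK1 replicates and 0.737 to 0.770 between GLK2 and GLK1 lists. Over 2413 other summits it was 0.819, 0.713 and 0.537 to 0.543, and over 8462 single summits 0.880, 0.759 and 0.599 to 0.658. Summits of 1 list share a library and a control and are not independent replicates, and the 3 sets differ in their range of strength.

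Regions with several summits lay along all chromosomes. Their share of the regions was between 9.61% on chromosome 4 and 12.6% on chromosome 2. The outer 20% at either end of the chromosomes held 3359 of them (82.4%), but also 29509 of all 37351 regions. They made up 11.4% of the regions there, against 9.13% (716 of 7842 regions) in the middle 60%. Their highest summits were found in all 3 other lists in 75.7% at the ends and 72.9% in the middle, against 33.4% and 30.9% of single summits. Single summits of like strength had 73.5% and 68.6%, which left differences of 2.23 and 4.34 points.

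Individual regions showed different arrangements of strong and weak summits. Those with the most summits and those with the highest fold changes were looked at singly, with ties in number settled by the higher fold change, and 2 regions were in both groups of 10. The region with the most summits lay on chromosome 2, between 38525214 and 38537630, and had 27 summits over 12416 bp. Of these, 5 stood far above the rest, at intervals of 2462, 2357, 2320 and 2519 bp. Their fold changes in GLK2 replicates 1 and 2 were 629 and 456, 519 and 515, 291 and 298, 416 and 426, and 293 and 304. In GLK1 replicates 1 and 2 they were 413 and 281, 393 and 284, 248 and 188, 437 and 349, and 257 and 221. All 5 strong summits were present in all 4 lists, although a different one was highest in GLK2 replicate 1, in GLK2 replicate 2 and in the GLK1 lists. The other 22 summits had a median fold change of 7.77 and reached at most 106. The span held 30 summits in GLK2 replicate 2, 20 in GLK1 replicate 1 and 23 in GLK1 replicate 2.

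A region on chromosome 2 between 37352281 and 37357810 had 11 summits, of which only a pair was strong. They lay 2577 bp apart, with fold changes of 869 and 651 in GLK2 replicate 1, 880 and 651 in GLK2 replicate 2, 512 and 365 in GLK1 replicate 1, and 334 and 293 in GLK1 replicate 2. The first of them was the higher in all 4 lists. The 9 remaining summits had fold changes of 4.04 to 17.0.

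A region on chromosome 5 between 18552463 and 18556276 was the second in number, with 15 summits and no dominant one. Its fold changes lay between 7.37 and 17.4 in GLK2 replicate 1, and its second summit, at 16.8, almost equalled the first. GLK2 replicate 2 had 16 summits in the same span, up to a fold change of 20.4. Both GLK1 lists had 0 summits there. Among the 4075 regions, 136 (3.34%) had no summit in either GLK1 list, against 48.1% of single-summit regions and 35.9% of all regions, and 133 of the 136 had at least 1 in GLK2 replicate 2. Wide regions search a longer span, and that part of the difference was not tested. The 133 had a highest fold change between 3.17 and 50.8 with a median of 6.62, and only 4 of them had 5 or more summits.

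The strongest summit of the list belonged to a region of 5 summits on chromosome 11 between 36589194 and 36591420. Its fold change was 1175 in GLK2 replicate 1 and 1161 in GLK2 replicate 2, against 757 and 433 in GLK1 replicates 1 and 2, at the same place to within 3 bp. The second summit, 288 bp away, had a fold change of 206 in GLK2 replicate 1 and 206 in GLK2 replicate 2. Neither GLK1 list had a second summit in the span, so the region had 1 summit in each.

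**Figure D5:**
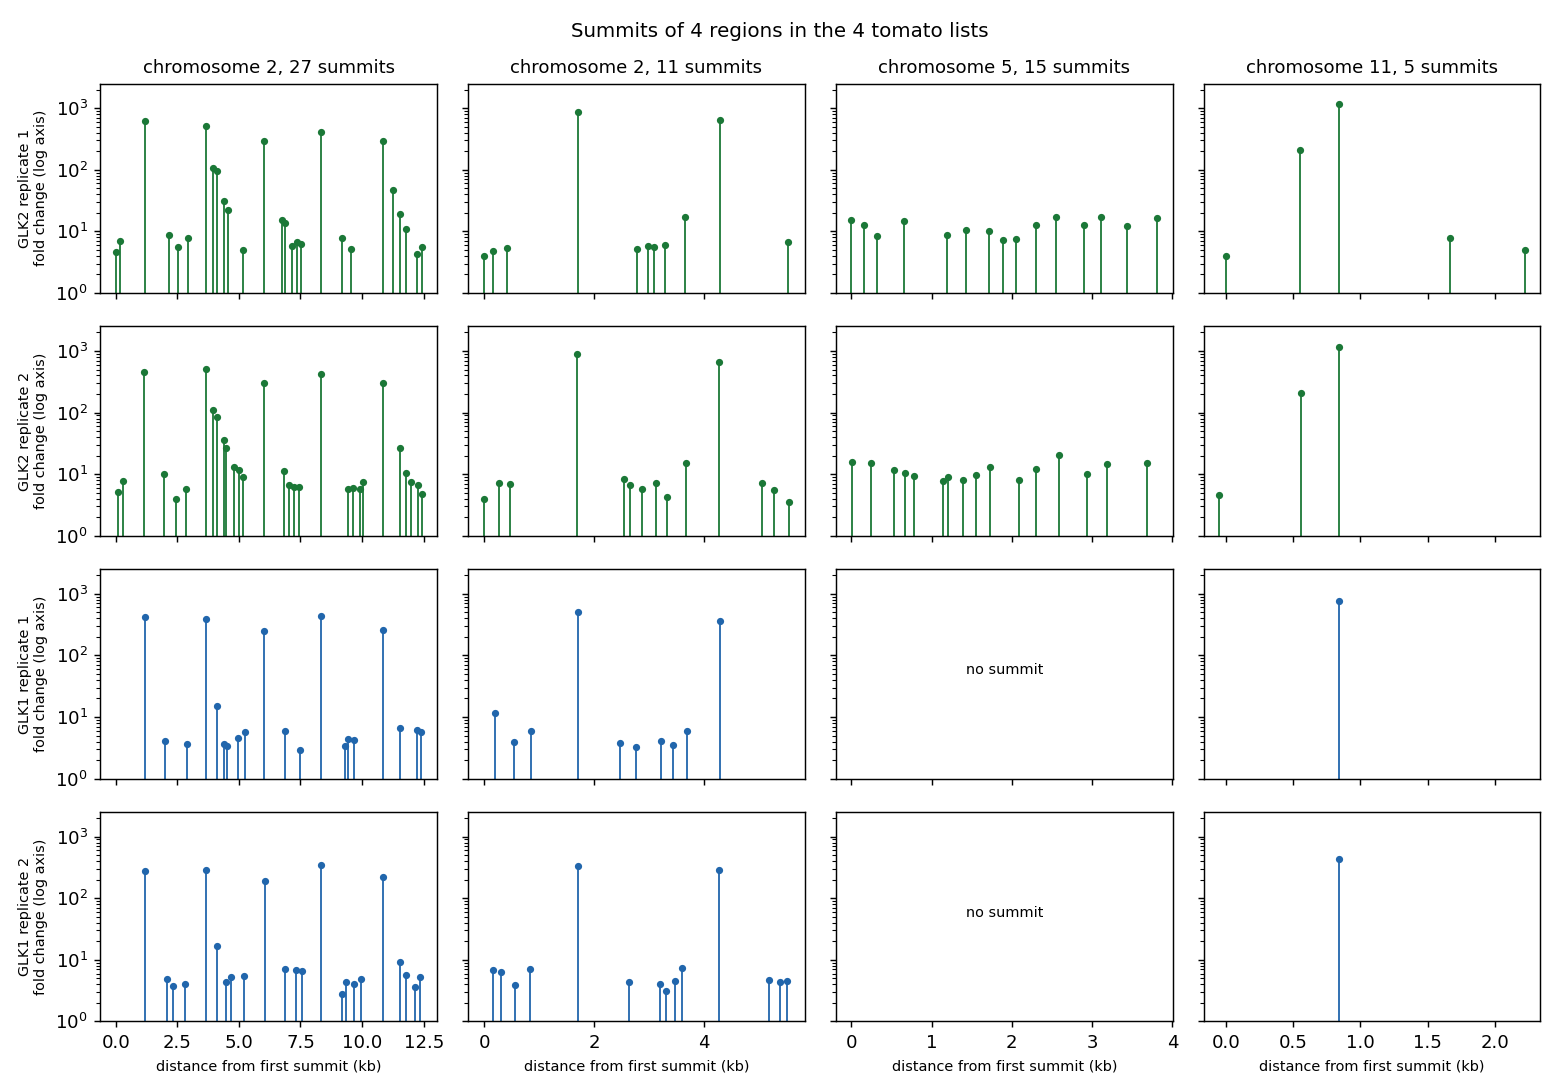
Summits of 4 regions (columns) in the 4 tomato lists (rows): each stem is a summit, placed by its distance from the region's first summit in GLK2 replicate 1 (x axis, kb) at its fold change (y axis, log). The 5 strong summits of the region with 27 appear in every list, the region with 15 summits on chromosome 5 has none in the GLK1 lists, and the strongest region of the list has 5 and 3 summits in the GLK2 lists but 1 in each GLK1 list.

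A single dominant summit was the usual form among the strongest regions. On chromosome 6, between 41062027 and 41065798, 1 of 11 summits had a fold change of 1051 in GLK2 replicate 1 and 1099 in GLK2 replicate 2, against 471 and 308 in GLK1 replicates 1 and 2, and the next reached 56.9. On chromosome 7, the region between 67490732 and 67492632 had a highest summit of 797, which was 97.3 times the second, and the region between 58967976 and 58969922 one of 711, which was 94.0 times the second. The region between 42314443 and 42317512 on chromosome 2 had a higher fold change in 1 GLK1 list than in the GLK2 lists, with 692 and 697 in GLK2 replicates 1 and 2, and 827 and 695 in GLK1 replicates 1 and 2. The region between 3488122 and 3491505 on chromosome 5 had like fold changes in 3 of the lists, with 669 and 649 in GLK2 replicates 1 and 2, and 654 and 512 in GLK1 replicates 1 and 2. The regions between 59912054 and 59913465 and between 546272 and 550284 on chromosome 3 had 779 and 684 in GLK2 replicate 1, and 561 and 507 in GLK1 replicate 1. A region on chromosome 11 between 2656876 and 2658847 had a second strong summit 204 bp from the first, at fold changes of 190 and 192 in GLK2 replicates 1 and 2, against 53.9 and 36.4 in GLK1 replicates 1 and 2. Its highest summit had 638 and 639 in GLK2, against 268 and 184 in GLK1.

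Regions with many summits were not all among the strongest. Of the 10 with the most summits, of which 3 were taken by fold change among 7 tied at 10 summits, 7 had a highest fold change under 25 in GLK2 replicate 1. Those under 25 still lay above the median of 11.03 of regions with 3 or more summits, at ranks 2603 to 4642 of 37351 regions. The region on chromosome 2 between 25325902 and 25327993 had 11 summits within 2091 bp, with fold changes of 5.34 to 22.9. Its highest place differed between the lists: in GLK1 replicates 1 and 2 the highest summit lay 665 and 700 bp from that of GLK2 replicate 1. On chromosome 6, the region between 30898377 and 30900710 had 11 summits. Each of the 3 other lists held partners of 9 of them, but not of the same 9. The highest fold change of this region was 15.4 and 10.4 in GLK2 replicates 1 and 2, against 16.6 and 10.99 in GLK1 replicates 1 and 2. The region on chromosome 8 between 63535548 and 63538214 also had 11 summits, of which 5 had a partner in GLK2 replicate 2, 4 in GLK1 replicate 1 and 2 in GLK1 replicate 2. The regions on chromosome 10 between 60941844 and 60944678, on chromosome 6 between 2175371 and 2178265 and on chromosome 2 between 39901242 and 39903515 had 10 summits each and highest fold changes of 24.5, 21.5 and 21.1.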

How the data were processed

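Reads were aligned to SL4.0 by the authors (Bowtie 2, version 2.3.2), filtered for mapping quality and duplicates with SAMtools, and passed to MACS2 (version 2.2.1) library by library, with several summits allowed per region. Per summit, the deposited lists hold a 150 bp window, the fold change over a control as a ratio, and p and q values as −log10. The control is not given in the sources used here, nor whether the lists share one.

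Of 55771 lines of the source list, 25 on unplaced sequence were left out, and these held 0 regions with 3 or more summits. Positions are 1-based. Shares have 95% Wilson intervals, and stratified differences weight single summits to the strength of the other set. Differences over lists or pairs of replicates were tested by exact two-sided sign-flip permutation. One-to-one partners were taken closest first. The code was tested on simulated data. The regions, lists and tests were chosen with earlier results of these data known. Regions named are the 10 with the most summits (ties by the higher fold change) and the 10 with the highest fold change. Regions were to be given gene names where a fold change equalled a tomato value of the study's chlorophyll pathway, but 0 of 20 values matched within a relative tolerance of 1e-05. No tomato genome was used here, so no sequence or gene annotation is given. Alternatives were other distances, summit minimums, a filter, other strata, other rankings, lists of equal length and lists left out. Computations were done in Python 3.11.15 (numpy 2.4.6; pandas 2.3.3), with scipy 1.17.1 for tests; matplotlib 3.10.9 drew the figures.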

Additional observations from a re-analysis of the deposited data

Results flagged for a closer look

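The stratified difference in recurrence between regions with 3 or more summits and single-summit regions of like strength differed in sign between the TFs where partners lay under 150 bp away. It was −0.11 points in the only GLK2 list searched, and 1.34 and 4.42 points in GLK1 replicates 1 and 2. The difference between the TFs was not tested, and the GLK2 value has an interval that includes 0. The sign difference rests on the setting: the GLK2 value was 0.07 with 10 strata, 0.14 with the filter on fold change and −log10 q, 0.21 with 5 or more summits, 0.38 with ranking by −log10 q, 0.97 with lists of equal length and 1.83 with 2 or more summits. Within 75 bp all 3 values were below 0.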

How the results depend on the processing

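The values below are in the order GLK2 replicate 2, GLK1 replicate 1, GLK1 replicate 2 where 3 are given, and the cause of a change was not tested. Differences are regions with 3 or more summits minus single summits of like strength, in points. With partners within 75 bp, 84.1%, 74.6% and 66.3% of highest summits were found and 55.6% in all 3 lists, the differences were −4.79, −3.87 and −0.92, other summits were found in 48.9%, 38.7% and 31.8%, and the same summit was highest in 71.3%, 63.7% and 61.8%. Within 25 bp the values were 58.0%, 46.2%, 38.6% and 22.2%, differences of −4.27, −4.55 and −1.24, other summits in 25.4%, 19.05% and 14.1%, and the same highest in 50.9%, 40.7% and 37.1%. With regions of 2 or more summits (11566, median spacing 209 bp, ratio of the others to the highest 0.583), 92.4%, 83.6% and 73.5% were found, 67.3% in all 3 lists, with differences of 1.83 and 2.91 in the first and second list. With 5 or more (679 regions, 239 bp, ratio 0.366), 99.1%, 92.05% and 89.1% were found, 85.3% in all 3, and the difference in GLK1 replicate 1 was −0.20. With fold change and −log10 q of at least 5 in every list, 1853 regions remained (232 bp, ratio 0.507). Then 96.3% and 75.2% of highest summits were found in GLK2 replicate 2 and GLK1 replicate 2, 72.0% in all 3, with a difference of 3.31 in GLK1 replicate 1. Other summits were found in 70.9%, 54.3% and 42.1%, and the same summit was highest in 85.9% and 76.3% in GLK2 replicate 2 and GLK1 replicate 2. With lists cut to the 38481 strongest summits, 91.98% and 83.4% of highest summits were found in GLK2 replicate 2 and GLK1 replicate 1, 72.5% in all 3, with differences of 0.97 and 3.10, and other summits in 61.5% and 50.9%. With the highest summit ranked by −log10 q, 76.6% were found in all 3.

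Without GLK2 replicate 1, so that GLK2 replicate 2 was the source, there were 3769 regions (217 bp, ratio 0.4996). Of their highest summits, 89.0% were found in GLK1 replicate 1, with a difference of 2.65. Other summits were found in 51.7% in GLK1 replicate 2, and the same summit was highest in 76.9% in GLK1 replicate 1. With 1 list left out, highest summits found in all remaining lists made up 76.9% to 85.0%. Over the replicate pairs of the series, the mean difference was −7.52 within 75 bp, 0.28 with 2 or more summits and −3.55 with replicate 2 as the source, and −2.48 to −0.90 with 1 pair left out. Averaged over both TFs per species, an alternative chosen after seeing the data, it was −1.68 (exact p = 0.4375). Of 119 alternative values, 68 moved by more than their interval or spread, 6 reversed, 2 passed the threshold that the value reported had missed, and 43 did none of these. No paired analysis was possible because no fit over samples was made in which a replicate block could stand; the sign-flip tests set kinds of region against each other within a list. A list cannot show a summit that its depth did not allow to be called, and that depth is unknown.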
